A study of Mus musculus with 12 samples.

Results

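Livers of mice whose chow held 5% of a VLCPUFA oil concentrate (polyunsaturated fatty acids of very long chain) were compared with livers of mice fed the same chow with none. The 8 libraries of this comparison are 4 controls and 4 at 5%, out of 12 in the series, and were taken by the diet and sex in their labels. All animals were wild-type C57BL/6J mice aged 9 months, with no transgene or deletion, given the AIN-93G chow (oil at 0% or 5% by weight) for 8 weeks, fasted for 5 hours and euthanized with tribromoethanol. The control females were N980 and N979 and the control males N968 and N967, while the 5% females were N988 and N987 and the 5% males N976 and N975. The oil was given as a whole concentrate, so its fatty acids cannot be told apart here, and the labels give no hour of collection. The 4 libraries at 1% oil (females N984 and N983, males N972 and N971) entered the fit to share its estimate of the spread. Where 4 values are given per diet they stand in the order of those names, females first, as read counts scaled to library size (CPM).

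VLCPUFA are chains longer than the common omega-3 fatty acids of fish oil, made in the body by elongases and shortened in peroxisomes. In hepatocytes, fatty acids and their CoA esters are ligands of the nuclear receptor PPARα, whose targets oxidise fatty acids in peroxisomes, microsomes and mitochondria. Easily oxidised lipids can release the transcription factor NRF2, which drives genes of glutathione conjugation and drug disposal. The liver also runs a circadian clock, in which BMAL1 (Arntl), CLOCK and NPAS2 activate Per, Cry, Rev-erb (Nr1d) and Dec (Bhlhe) genes that repress them in turn.

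The shallowest library, control female N979, held 5291385 estimated reads, and the deepest, 5% male N976, held 15674130. The share of reads in the nuclear noncoding RNAs Malat1, Neat1 and Kcnq1ot1 was 0.0286 to 0.0936% in the controls, highest in N979, and 0.0264 to 0.140% at 5%, highest in N988, and results are given below without both of these libraries where that ends the call of a gene printed with its own adjusted p. By an exact 2-sided permutation test over the 8 libraries, depth (p = 0.114), the noncoding share (p = 0.857) and the mitochondrial share (p = 0.600) did not pass. The 10 most abundant genes took 22.9 ± 2.43% of reads in the controls and 19.7 ± 0.590% at 5% (exact permutation p = 0.0286, the smallest that 4 against 4 allow, and 0.143 adjusted over 5 measures). All 12 hepatocyte markers, Alb among them, were read in both diets. Replicates are separate animals, and p values measure the spread between these animals.

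The 5% oil changed 340 of the 13814 genes tested, 2.46%, by edgeR's quasi-likelihood test with sex in the model and a Benjamini-Hochberg adjusted p below 0.05. Of these, 164 rose (1.19% of the genes tested) and 176 fell (1.27%), and the median log2 fold change of all genes tested was 0.01. Changes were large for many of them: 116 of the genes that rose and 126 of those that fell moved by at least 1 on the log2 scale, and 37 in each direction by at least 2. All 4 libraries at 5% lay above all 4 controls for 429 genes (3.11%) and below them for 411 (2.98%). Of the 340 genes, 253 did not overlap between the diets and 87 did.

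**Figure D1:**
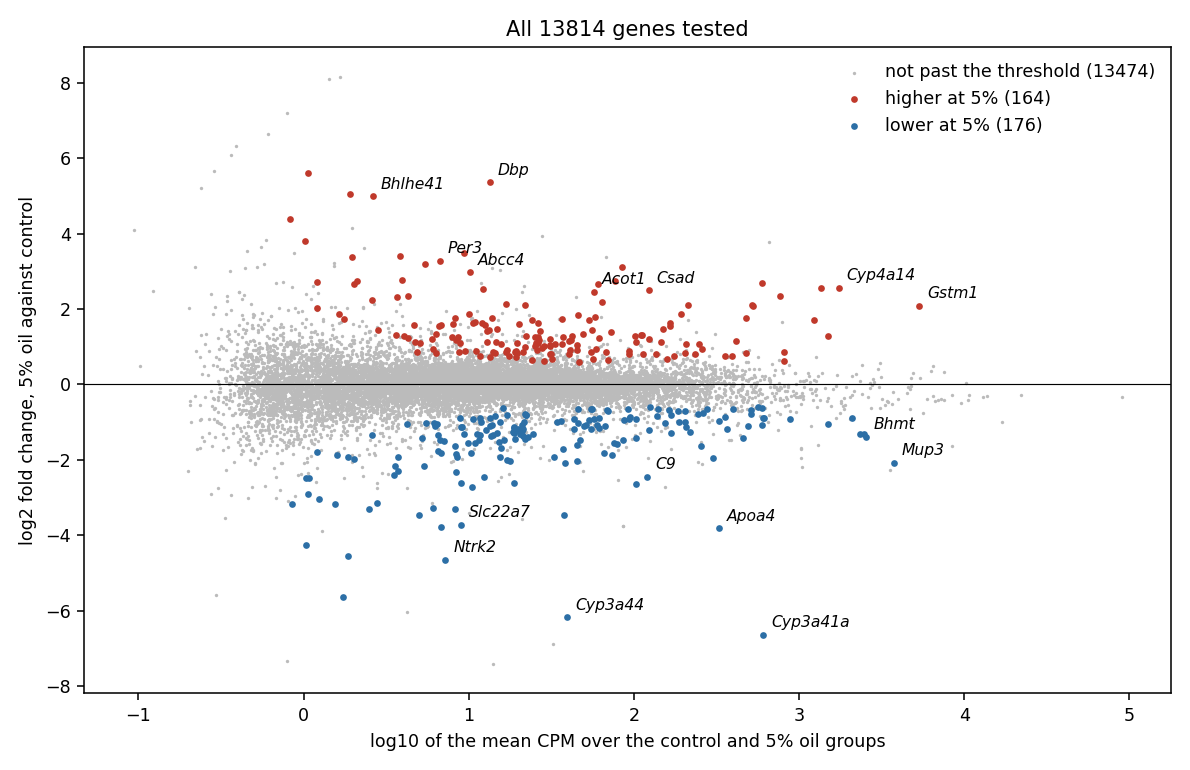
Log2 fold change of each of the 13814 genes tested (5% oil against control, y axis) against the log10 of its mean CPM over the control and 5% groups (x axis). Red points are the 164 genes that rose and blue points the 176 that fell; gene names mark some of the largest changes.

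The number of genes past the threshold moved when libraries or terms were left out. Leaving out N980 gave 181, N968 179, N988 170, N987 193 and N976 138 genes; it was 209 without both N979 and N988, 201 with the 8 libraries alone and 107 without the sex term. Of 110 genes chosen by a rule, 76 passed. The rule took these 76 because they had passed, so 76 is no pass rate. Of the 76 so chosen, 44 passed without each single library, and 29 under each of the 24 alternatives tried. With the 8 libraries alone, fewer members of several lists rose: 2 peroxisomal (6 in the main fit), 0 mitochondrial (2) and 8 NRF2 genes (13). Fewer fell too, 3 complement genes (7) and 2 apolipoproteins (5). The Cyp4a count stayed at 3, and interferon genes that fell numbered 4 (5). Genes given below that lost their call there are named near the end.

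Reads in the 164 genes that rose made up 0.908 to 1.37% of each control library and 3.47 to 4.16% of each 5% library. Reads in the 176 that fell made up 3.60 to 4.40% of each control library and 1.65 to 2.33% at 5%. The genes were chosen by this contrast, so these shares describe their weight in the transcriptome and test nothing. Abundant genes passed more often: 6.59% of the 1244 genes above 100 CPM passed, and 0.141% of the 1421 genes at or below 1 CPM.

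**Figure D2:**
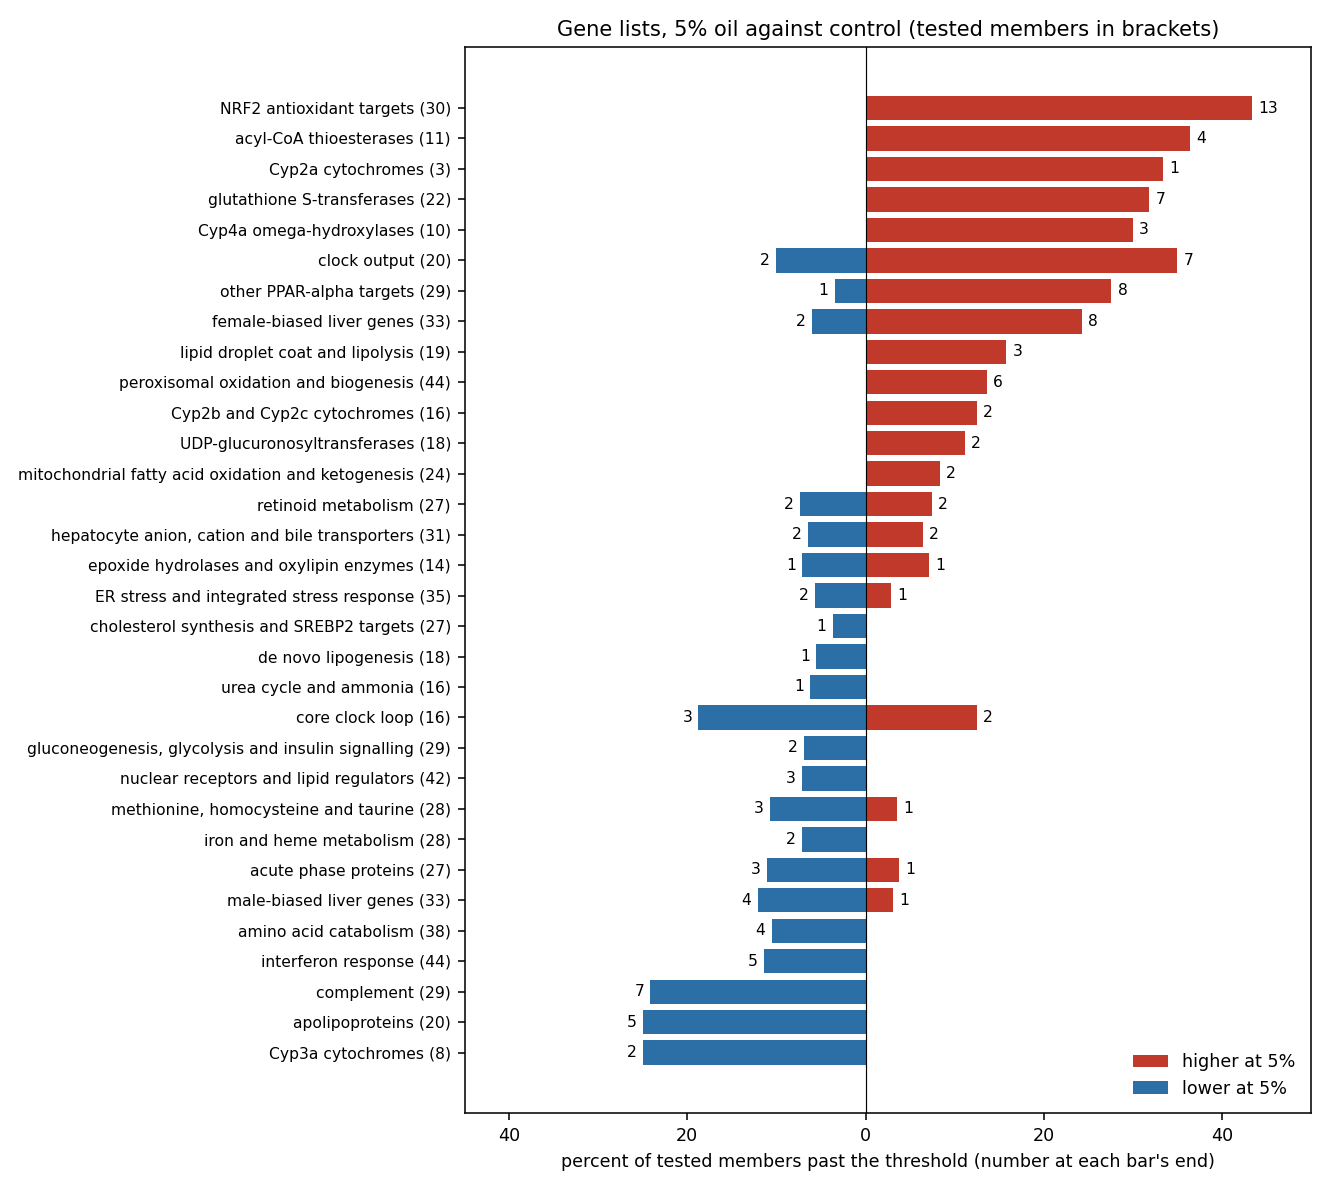
Percent of the tested members that rose (red, right) or fell (blue, left) at 5% oil, for each pathway list with any member past the threshold. The number of genes stands at the end of each bar and the number tested in brackets. Lists with no member past it are not drawn: elongases and desaturases, bile acid synthesis, carboxylesterases, coagulation, cytokines and chemokines, and nuclear-encoded oxidative phosphorylation. NRF2 targets had the most members that rose, 13 of 30, and complement the most that fell, 7 of 29. Over all genes 1.19% rose and 1.27% fell, and of the 1244 genes above 100 CPM 37 rose and 45 fell.

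Several acyl-CoA thioesterases and fatty acid omega-hydroxylases rose. Acot1, a cytosolic acyl-CoA thioesterase that frees fatty acids from CoA, read 16.6, 24.5, 12.03 and 18.5 CPM in the controls and 101, 102, 84.9 and 101 CPM at 5%. The 5% livers lay within a narrow band and far above the controls, a log2 change of 2.46 ± 0.18 (edgeR adjusted p = 3.62e-05). Cyp4a10, an omega-hydroxylase of fatty acids in microsomes, read 292, 296, 426 and 584 CPM in the controls and 1848, 2655, 2083 and 2676 CPM at 5%, and rose by 2.56 ± 0.26 (edgeR adjusted p = 0.000273). Its close relative Cyp4a14 read 446, 768, 363 and 456 CPM in the controls and 1688, 3472, 3104 and 3643 CPM at 5%, and rose by 2.57 ± 0.29 (edgeR adjusted p = 0.000568). For both genes N988 was the lowest of the 5% livers, and no 5% liver reached down to a control. Of 10 tested Cyp4a genes 3 rose, with Cyp4a31 at 1.61 ± 0.27 (edgeR adjusted p = 0.00712) as the third, against 1.19% of all genes; their median log2 fold change was 0.77. Of 11 acyl-CoA thioesterases 4 rose and 0 fell, with a median of 0.32. Acot3, a peroxisomal thioesterase with higher levels in females, read 39.8, 40.98, 5.05 and 11.6 CPM in the controls and 147, 182, 48.2 and 37.9 CPM at 5%, so the diets overlap across the sexes while each sex is apart. It rose by 2.18 ± 0.33 (edgeR adjusted p = 0.00572), Acot2 by 1.41 ± 0.23 (edgeR adjusted p = 0.00618) and Acot4 by 0.89 ± 0.20 (edgeR adjusted p = 0.0311). Acot4 lost its edgeR call without any 1 library other than N983, N972, N971, N967 or N975 (adjusted p 0.051 to 0.118). Near copies among the Cyp4a and Acot genes share reads, which makes the split between them uncertain. The edgeR call of Acot4 (adjusted p = 0.0946) was lost without both N979 and N988.

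Some genes of peroxisomal oxidation rose. Ehhadh, the peroxisomal bifunctional enzyme, read 263, 118, 255 and 389 CPM in the controls and 1065, 989.97, 1519.7 and 1507 CPM at 5%, with females below males at 5% and all 4 above every control. It rose by 2.34 ± 0.24 (edgeR adjusted p = 0.000293). Pex26, which anchors the peroxisomal import machinery, read 10.3, 18.7, 11.2 and 12.1 CPM in the controls and 32.2, 39.6, 34.7 and 19.6 CPM at 5%; the male N975 at 5% was close to the highest control, N979. It rose by 1.28 ± 0.22 (edgeR adjusted p = 0.00874). Acaa1b, a peroxisomal thiolase, read 459, 707, 1333 and 1203 CPM in the controls and 2729.98, 1508, 2036 and 2016 CPM at 5% and rose by 1.29 ± 0.28 (edgeR adjusted p = 0.0265). Of 44 peroxisomal genes 6 rose and 0 fell, with a median of 0.19, and 33 lay above 0. The other 3 were the thiolase Acaa1a and the isomerases Ech1 and Eci2, at 0.76 to 0.80 on the log2 scale. The count of 6 was 2 without N980 and 3 without N984, N972, N967, N988, N987 or N976. Acaa1b lost its edgeR call without N980 or N979 (adjusted p 0.0606 to 0.0842). The peroxisomal fatty acyl-CoA transporters Abcd2 and Abcd3 did not pass, at 0.69 ± 0.25 (edgeR adjusted p = 0.186) and 0.21 ± 0.23 (edgeR adjusted p = 0.775).

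Few genes of mitochondrial oxidation passed. Of 24 genes of mitochondrial fatty acid oxidation and ketogenesis 2 rose, Acadm, a medium-chain dehydrogenase, by 0.76 ± 0.19 (edgeR adjusted p = 0.0475) and Acsl1, which activates long-chain fatty acids, by 0.63 ± 0.15 (edgeR adjusted p = 0.0465). The list's median was 0.40 and 22 of its 24 members lay above 0, while the median of all genes was 0.01. Both calls sat at the threshold: 1 of the 24 passed without N967 or N988, and 0 passed without any other single library. Cpt1a, the gate of fatty acid entry into mitochondria, read 182, 171, 171 and 273 CPM in the controls and 123, 181, 212 and 280.1 CPM at 5% and lay at -0.03 ± 0.19 (edgeR adjusted p = 0.97). With neither N979 nor N988 in the fit, edgeR did not call Acadm (adjusted p = 0.0846).

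Further PPARα targets rose: 8 of 29 rose and 1 fell, with a median of 0.44. Retsat, a retinol saturase, read 153, 67.4, 297 and 331 CPM in the controls and 832, 938, 728 and 801 CPM at 5%, and the 5% livers of both sexes reached a similar level from controls that differed by sex. It rose by 2.12 ± 0.37 (edgeR adjusted p = 0.0111). Txnip, which binds thioredoxin and limits glucose uptake, read 131, 135, 43.2 and 42.5 CPM in the controls and 332, 461, 283 and 106 CPM at 5%, with the 5% male N975 below both control females. It rose by 1.87 ± 0.34 (edgeR adjusted p = 0.0127). The remaining 6 were Gpd1, Slc27a1, Vnn1, Vldlr, Cidec and Fitm2, at 0.82 to 1.76 on the log2 scale. Pdk4, a kinase that shuts down pyruvate oxidation, fell, at -1.46 ± 0.33 (edgeR adjusted p = 0.038). The count of 8 was 1 without N980 or N968, 3 without N988, 4 without N987 or N976 and 5 without N979. Retsat lost its edgeR call without N980 (adjusted p = 0.0585), Txnip without N968 (adjusted p = 0.0567) and Pdk4 without any 1 library other than N979, N968 or N975 (adjusted p 0.0507 to 0.125). Ppara itself read 22.3, 25.6, 17.7 and 49.2 CPM in the controls and 26.8, 30.3, 43.8 and 35.2 CPM at 5% and lay at 0.25 ± 0.27 (edgeR adjusted p = 0.764). A direct repeat of the receptor half-site (DR1, both strands) was searched in the promoter windows of the 18 fatty acid oxidation genes that rose and have a window. It was found in 0 of the 18, against 0.405% of tested genes. A match this rare is hardly to be met in 18 windows. The 0 therefore says only that these exact letters are not in them. Without both N979 and N988, Txnip (adjusted p = 0.0666) and Pdk4 (adjusted p = 0.0909) did not pass in edgeR.

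**Figure D3:**
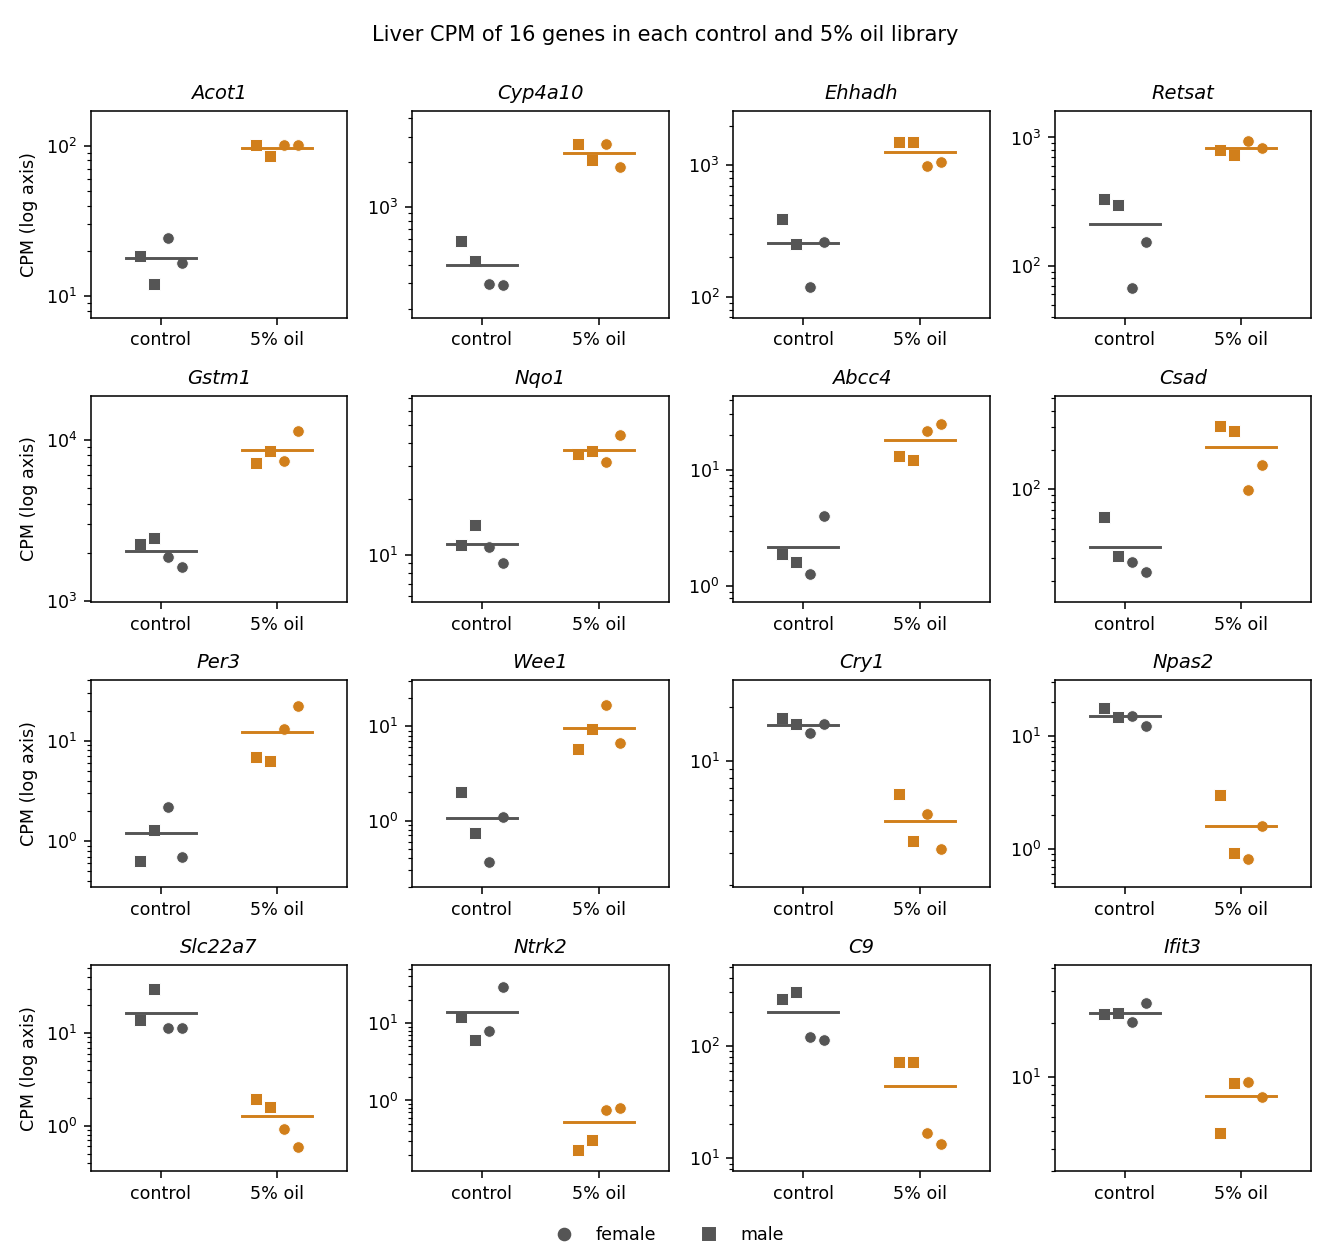
CPM (log axis) of 16 genes in each control (grey) and 5% oil (orange) library, circles for females and squares for males, with a bar at the mean of 4. In each panel all 4 libraries at 5% lie on the same side of the 4 controls. The genes were picked for display from those past the threshold, of which 253 did not overlap between the diets and 87 did. Of all genes tested 3.11% lay above every control in all 4 libraries at 5%, and 2.98% below.

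Many genes of the NRF2 response rose. Of 30 targets tested 13 rose and 0 fell, with a median log2 fold change of 0.65, and 12 lay above every control in all 4 livers at 5% (3.11% of all genes did). Nqo1, a quinone reductase, read 8.999, 11.1, 14.5 and 11.3 CPM in the controls and 44.5, 31.9, 36.3 and 35.2 CPM at 5%. Every 5% liver was above every control, by 1.70 ± 0.18 (edgeR adjusted p = 0.000293) on the log2 scale. Abcc4, an export pump of the basolateral membrane, read 3.999, 1.27, 1.61 and 1.88 CPM in the controls and 25.03, 21.6, 12.2 and 13.3 CPM at 5%, higher in the 5% females than in the 5% males. It rose by 2.97 ± 0.27 (edgeR adjusted p = 8.77e-05). Cbr3, a carbonyl reductase, read 0.5999, 0.363, 0.644 and 0.4702 CPM in the controls and 3.61, 2.500, 5.35 and 3.24 CPM at 5% and rose by 2.75 ± 0.39 (edgeR adjusted p = 0.00317). Its relative Cbr1 rose by 1.31 ± 0.19 (edgeR adjusted p = 0.00342), the oxidoreductase Htatip2 by 1.35 ± 0.16 (edgeR adjusted p = 0.000982) and the iron-binding regulator Pir by 1.26 ± 0.18 (edgeR adjusted p = 0.00342). Ephx1, the microsomal epoxide hydrolase, read 116, 69.8, 405 and 362 CPM in the controls and 888, 749, 759.9 and 867 CPM at 5%. Control females lay far below control males, and at 5% the sexes read alike, and the log2 change was 2.09 ± 0.38 (edgeR adjusted p = 0.0127). The other 6 that rose were Abcc3, Aox1, Blvrb, Entpd5, Gsr and Ugdh, at 0.68 to 1.47. The count of 13 was 8 without N968, N987 or N976, and 10 without both N979 and N988. Ephx1 lost its edgeR call without N980 (adjusted p = 0.07). Other known targets did not pass: Hmox1, a heme oxygenase, lay at 0.14 ± 0.36 (edgeR adjusted p = 0.923) and Gclc, of glutathione synthesis, at 0.28 ± 0.22 (edgeR adjusted p = 0.633). Nfe2l2, which encodes NRF2, read 83.99, 87.9, 112 and 124 CPM in the controls and 107, 88.5, 83.3 and 89.5 CPM at 5% and lay at -0.16 ± 0.18 (edgeR adjusted p = 0.783).

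Glutathione S-transferases, which conjugate reactive compounds, held the most abundant gene that rose. Gstm1 read 1626, 1884, 2455 and 2268 CPM in the controls and 11318, 7358, 8501 and 7198 CPM at 5%. It rose by 2.09 ± 0.23 (edgeR adjusted p = 0.000387), and N988 was the highest. Gsta2 read 7.099, 12.5, 48.97 and 20.7 CPM in the controls and 168, 150.04, 139 and 132 CPM at 5%; the 4 livers at 5% read alike, while the controls spread widely. It rose by 3.11 ± 0.54 (edgeR adjusted p = 0.014), Gstm3 by 2.10 ± 0.34 (edgeR adjusted p = 0.00781), Gstm4 by 1.30 ± 0.22 (edgeR adjusted p = 0.00772) and Gstt2 by 1.24 ± 0.23 (edgeR adjusted p = 0.013). In all 7 of 22 transferases rose and 0 fell, the other 2 being Gsta4 and Gstp1, and their median was 0.56. The count was 4 without N980, and 4 without both N979 and N988. Gsta2 lost its edgeR call without N980 or N979 (adjusted p 0.065 to 0.0747), Gsta4 without N980, N967, N988 or N976 (adjusted p 0.0532 to 0.0805) and Gstp1 without N984, N980, N979, N967, N988 or N987 (adjusted p 0.0509 to 0.138). Of 18 UDP-glucuronosyltransferases 2 rose, Ugt2b35 by 1.54 ± 0.26 (edgeR adjusted p = 0.00824) and Ugt2b5 by 0.87 ± 0.17 (edgeR adjusted p = 0.0155), with 1 without N968. Ugt2b5 lost its edgeR call without N968 (adjusted p = 0.0649). Members of these families are near copies, and the split of reads between them is an estimate. Leaving out both N979 and N988 ended the edgeR call of Gsta2 (adjusted p = 0.116), Ugt2b5 (adjusted p = 0.0566), Gsta4 (adjusted p = 0.0548) and Gstp1 (adjusted p = 0.123).

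The NRF2 targets and transferases that rose were searched for the core of the antioxidant response element, TGACNNNGC, on both strands, in RefSeq promoter windows from 250 bases before to 50 after each gene's start (GRCm38.p6). Of the 16 with a window, 4 held it (25%), against 16.7% of the 10361 tested genes with a window and 13.99% of all 27025 genes, and none of these matches overlapped another motif searched. The 3 shown are Abcc4 (chr14:118676926-118676974, minus strand), Htatip2 (chr7:49759097-49759145, plus strand) and Ugdh (chr5:65435908-65435994, minus strand), because Abcc4 had the largest change and the others hold it within a short stretch. Each runs 5′ to 3′ on the gene's strand, with 20 bases on either side, and capitals mark the core, read as its reverse complement where it lies on the other strand.
Abcc4: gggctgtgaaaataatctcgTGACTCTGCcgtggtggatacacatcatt
Htatip2: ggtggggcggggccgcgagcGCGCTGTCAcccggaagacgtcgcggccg
Ugdh: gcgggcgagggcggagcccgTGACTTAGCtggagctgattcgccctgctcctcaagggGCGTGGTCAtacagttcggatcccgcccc

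Cytochromes P450 for drugs and steroids moved in both directions. Cyp2c29 read 653, 317, 674 and 669 CPM in the controls and 865, 2272, 2312 and 2116 CPM at 5%, with N979 and N988 each lowest in its group, and rose by 1.71 ± 0.31 (edgeR adjusted p = 0.0124). Cyp2b10, the classic target of the receptor CAR, read 9.099, 4.71, 2.04 and 0.157 CPM in the controls and 28.4, 36.1, 10.3 and 7.29 CPM at 5%, and rose by 2.54 ± 0.51 (edgeR adjusted p = 0.0231). These were 2 of 16 Cyp2b and Cyp2c genes, with a median of 0.62 and a count of 1 without N980, N979, N968, N987 or N976. Cyp2a4, a female-enriched steroid hydroxylase, read 635, 373, 4.403 and 7.37 CPM in the controls and 2103, 1539, 97.8 and 36.5 CPM at 5% and rose by 2.69 ± 0.42 (edgeR adjusted p = 0.00712) in both sexes from very different levels. Of 8 Cyp3a genes 2 fell, both expressed in females. The list's median was -3.14, and 2 of the 8 lay above 0. The count that fell was 4 by voom, 3 with the 8 libraries alone, 1 without N988 or N987 and 0 by limma on the deposited CPM. Cyp3a41a read 2729.7, 2071, 0 and 0.157 CPM in the controls and 3.53, 41.1, 0 and 0 CPM at 5%, so the change was in the females, from 2729.7 and 2071 CPM to 3.53 and 41.1, while no male exceeded 0.157 CPM. Its log2 change was -6.65 ± 1.00 (edgeR adjusted p = 0.00824); it was -9.29 without N987, -5.76 without N988 and -3.76 by limma on the deposited CPM (adjusted p = 0.152). Cyp3a44 read 202, 110.2, 0.107 and 0.313 CPM in the controls and 1.84, 1.87, 0.123 and 0 CPM at 5%, at -6.18 ± 0.98 (edgeR adjusted p = 0.0101), and limma on the deposited CPM gave -3.07 (adjusted p = 0.106). The main Cyp3a gene of mouse liver, Cyp3a11, lay at 0.09 ± 0.23 (edgeR adjusted p = 0.923). Cyp2c29 lost its edgeR call without N968 (adjusted p = 0.0602), Cyp2b10 without N980, N979, N987 or N976 (adjusted p 0.0611 to 0.081) and Cyp3a44 without N988 or N987 (adjusted p 0.101 to 0.11). The receptors CAR (Nr1i3) and PXR (Nr1i2) did not pass, at 0.34 ± 0.48 (edgeR adjusted p = 0.832) and -0.36 ± 0.25 (edgeR adjusted p = 0.576). The pair N979 and N988 left out, edgeR no longer called Cyp2b10 (adjusted p = 0.098), Cyp2a4 (adjusted p = 0.0621) and Cyp3a44 (adjusted p = 0.131).

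Among 31 transporters of anions, cations and bile acids 2 rose, Abcc3 and Abcc4, and 2 fell. Slc22a7, the organic anion transporter OAT2, read 11.3, 11.2, 29.96 and 13.9 CPM in the controls and 0.589, 0.937, 1.598 and 1.97 CPM at 5%. It was below 2 CPM in all 4 livers at 5% and above 11 CPM in all controls, and fell by 3.73 ± 0.31 on the log2 scale (edgeR adjusted p = 4.47e-05). Slc10a2, the apical bile acid transporter, read 26.9, 11.4, 46.3 and 39.8 CPM in the controls and 0.883, 2.12, 10.1 and 13.1 CPM at 5%, where the 5% males reached the level of control female N979, at -2.63 ± 0.42 (edgeR adjusted p = 0.00781). Abcc3, an export pump for conjugates, read 95.8, 169, 165 and 223 CPM in the controls and 301, 371, 332 and 335 CPM at 5% and rose by 1.06 ± 0.22 (edgeR adjusted p = 0.0212). Abcc3 lost its edgeR call without N980, N968, N987 or N976 (adjusted p 0.052 to 0.0727). Of 20 bile acid synthesis genes 0 passed in edgeR (8 at an unadjusted p below 0.05, 4 by DESeq2); Cyp7a1, the rate-limiting enzyme, read 3.800, 12.3, 6.55 and 9.72 CPM in the controls and 9.64, 25.1, 23.2 and 18.2 CPM at 5% and lay at 1.27 ± 0.49 (edgeR adjusted p = 0.252), with an unadjusted p of 0.0248. By edgeR without both N979 and N988, Abcc3 (adjusted p = 0.0511) did not pass.

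Fatty acid elongases and desaturases, which make and extend polyunsaturated chains, had 0 of 18 members past edgeR's threshold (6 at an unadjusted p below 0.05, 1 by DESeq2) and a median of -0.19. Elovl5, which extends polyunsaturated chains, came nearest. It read 1898, 597, 2007 and 1926 CPM in the controls and 571, 490.4, 864 and 1101 CPM at 5%, with the control female N979 far below the other controls, and lay at -1.12 ± 0.28 (edgeR adjusted p = 0.0529); it passed under 6 of the other alternatives and without 1 of the libraries. Elovl2 lay at -1.06 ± 0.41 (edgeR adjusted p = 0.245), Fads2 at -0.83 ± 0.28 (edgeR adjusted p = 0.157), Fads1 at -0.62 ± 0.25 (edgeR adjusted p = 0.252) and Scd1 at -1.001 ± 0.40 (edgeR adjusted p = 0.265). N979 had the lowest control value of each of these genes. Of 18 genes of lipogenesis 1 fell (2 without N979), Insig2, which holds SREBP in the endoplasmic reticulum. It read 482, 184, 563 and 629.8 CPM in the controls and 46.8, 70.8, 142 and 286 CPM at 5%, at -1.95 ± 0.35 (edgeR adjusted p = 0.0123). Fasn, the fatty acid synthase, read 2479.9, 587, 1822 and 1950.4 CPM in the controls and 2332, 1861, 1827 and 606 CPM at 5% and lay at -0.04 ± 0.47 (edgeR adjusted p = 0.986), and Srebf1 lay at 0.91 ± 0.43 (edgeR adjusted p = 0.362). Of 27 SREBP2 target and cholesterol synthesis genes 1 fell, Insig1, at -1.43 ± 0.34 (edgeR adjusted p = 0.0463). Insig2 lost its edgeR call without N987 or N976 (adjusted p 0.051 to 0.0521) and Insig1 without any 1 library other than N967 or N975 (adjusted p 0.0513 to 0.157). The edgeR call of Insig1 (adjusted p = 0.216) was lost without both N979 and N988.

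Lipid droplet genes had 3 of 19 members that rose and a median of -0.13; the count was 0 without N984, N980, N968, N988 or N987 and 1 without N979 or N976. Cidec, a droplet fusion protein, read 0.5999, 1.27, 9.24 and 18.3 CPM in the controls and 3.83, 3.81, 30.9 and 41.9 CPM at 5%, low in females and higher in males of both diets, and rose by 1.75 ± 0.38 (edgeR adjusted p = 0.0309). Hsd17b11, a droplet-bound dehydrogenase, rose by 0.83 ± 0.19 (edgeR adjusted p = 0.0338), and Fitm2, of droplet budding, by 0.82 ± 0.20 (edgeR adjusted p = 0.0499). Pnpla5, a lipase of lipid droplets outside this list, fell and is given below. Cidec lost its edgeR call without N984, N980, N968, N988 or N987 (adjusted p 0.0508 to 0.124), Hsd17b11 without any 1 library other than N983, N972, N971 or N975 (adjusted p 0.0515 to 0.102) and Fitm2 without any 1 library other than N967 (adjusted p 0.0531 to 0.177). Among apolipoproteins 5 of 20 fell and 0 rose, with a median of -0.26. Apof, an inhibitor of cholesteryl ester transfer, read 707, 809, 681 and 489.6 CPM in the controls and 317, 306, 308 and 315 CPM at 5%. The 5% livers were almost equal and below every control, at -1.10 ± 0.15 (edgeR adjusted p = 0.00282). Apoa4, carried on triglyceride-rich particles, read 447, 99.9, 771 and 1152 CPM in the controls and 39.8, 42.5, 29.6 and 23.6 CPM at 5%, with wide spread among the controls and little at 5%, at -3.82 ± 0.69 (edgeR adjusted p = 0.0185). Apoc3, an inhibitor of lipoprotein lipase, read 2396, 4149, 2772 and 1494 CPM in the controls and 2023, 1437, 1118 and 1230.4 CPM at 5% and fell at -0.89 ± 0.22 (edgeR adjusted p = 0.0499), Apol7a at -0.69 ± 0.15 (edgeR adjusted p = 0.0297) and Apol9b at -1.09 ± 0.25 (edgeR adjusted p = 0.0387). Apoa4 lost its edgeR call without N980, N988, N987 or N976 (adjusted p 0.055 to 0.106), Apoc3 without any 1 library other than N980 or N967 (adjusted p 0.0638 to 0.179), Apol7a without any 1 library other than N983, N972, N971 or N979 (adjusted p 0.0546 to 0.121) and Apol9b without any 1 library other than N983, N971, N980 or N967 (adjusted p 0.0558 to 0.125). The count of 5 was 1 without N988, N987 or N976, 2 without N984, N968 or N975 and 3 without N972 or N979. With neither N979 nor N988 in the fit, edgeR did not call Cidec (adjusted p = 0.0927), Hsd17b11 (adjusted p = 0.0971), Fitm2 (adjusted p = 0.0925), Apoc3 (adjusted p = 0.0949), Apol7a (adjusted p = 0.0948) and Apol9b (adjusted p = 0.164).

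Several complement components, which hepatocytes secrete into plasma, fell. Of 29 tested 7 fell (1.27% of all genes did, and 45 of the 1244 genes above 100 CPM) and 0 rose, and the median was -0.46. C9, the last component of the membrane attack complex, read 113, 120.03, 298.98 and 259.6 CPM in the controls and 13.4, 16.7, 71.9 and 72.1 CPM at 5%. It fell in both sexes from a higher level in males, at -2.45 ± 0.20 (edgeR adjusted p = 4.47e-05). C8a, of the same complex, read 132, 114, 412 and 512 CPM in the controls and 42.04, 34.6, 204 and 299.2 CPM at 5%, at -1.27 ± 0.23 (edgeR adjusted p = 0.00965). C4b, of the classical pathway, read 1292, 1302, 898 and 1136 CPM in the controls and 613, 690.1, 616 and 512 CPM at 5%, at -0.92 ± 0.14 (edgeR adjusted p = 0.00524). The other 4 were C1s1, C8g, Hc and Serping1, at -0.60 to -0.86, and the count of 7 was 3 without N980, N968, N988, N987 or N976 and 4 without N984 or N972. In bulk tissue, fewer cells of a type and less RNA per cell cannot be told apart. Hepatocyte markers had a median of -0.38 with 0 of 12 past edgeR's threshold (5 at an unadjusted p below 0.05, 0 by DESeq2), and the part of this in the complement result was not tested. Of 29 coagulation genes 0 passed in edgeR (14 at an unadjusted p below 0.05, 4 by DESeq2), with a median of -0.34. Without both N979 and N988, C8a (adjusted p = 0.0511) did not pass in edgeR.

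Acute phase proteins, which the liver releases in inflammation, had 3 of 27 members that fell and 1 that rose, with a median of -0.42; the count that fell was 1 without N968 or N988. Orm1, an acid glycoprotein, read 906, 815, 919 and 609 CPM in the controls and 418, 331, 380.2 and 406 CPM at 5%. All 5% livers were below all controls, at -1.08 ± 0.17 (edgeR adjusted p = 0.00618). Saa2, a serum amyloid, read 32.9, 31.2, 83.5 and 64.3 CPM in the controls and 6.63, 14.4, 24.6 and 6.71 CPM at 5%, at -1.93 ± 0.38 (edgeR adjusted p = 0.02), and Orm2 lay at -1.27 ± 0.29 (edgeR adjusted p = 0.0365). Saa3, the serum amyloid made by macrophages and other cells, read 5.599, 10.3, 8.91 and 6.11 CPM in the controls and 26.9, 27.2, 25.6 and 7.52 CPM at 5% and rose by 1.48 ± 0.34 (edgeR adjusted p = 0.0389), with N975 inside the control range. Saa2 lost its edgeR call without N980, N968 or N988 (adjusted p 0.0574 to 0.0737), Orm2 without any 1 library other than N983, N980, N987 or N975 (adjusted p 0.0501 to 0.12) and Saa3 without any 1 library other than N983 or N975 (adjusted p 0.054 to 0.161). Of 16 tested cytokines and chemokines 0 passed in edgeR (1 at an unadjusted p below 0.05, 0 by DESeq2); Il1b lay at -0.32 ± 0.53 (edgeR adjusted p = 0.864) and Ccl2 at 1.38 ± 0.76 (edgeR adjusted p = 0.447). Leaving out both N979 and N988 ended the edgeR call of Saa2 (adjusted p = 0.0948), Orm2 (adjusted p = 0.173) and Saa3 (adjusted p = 0.139).

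Some interferon-induced genes fell, 5 of 44, with 0 that rose and a median of -0.54; 10 members lay below every control in all 4 livers at 5% (2.98% of all genes did). Ifit3, an antiviral RNA-binding protein, read 25.7, 20.1, 22.6 and 22.4 CPM in the controls and 7.73, 9.31, 9.22 and 4.86 CPM at 5%. The controls were tightly grouped and N975 was the lowest at 5%, with -1.53 ± 0.23 (edgeR adjusted p = 0.00434). Ifi27 read 126, 119, 112 and 99.4 CPM in the controls and 58.2, 56.99, 64.1 and 57.9 CPM at 5%, at -0.94 ± 0.13 (edgeR adjusted p = 0.00282). Isg15, a ubiquitin-like modifier, read 8.299, 14.1, 10.3 and 9.404 CPM in the controls and 4.05, 4.06, 4.06 and 2.55 CPM at 5%, at -1.50 ± 0.23 (edgeR adjusted p = 0.00524). Ifit1 fell at -1.48 ± 0.26 (edgeR adjusted p = 0.00874) and the regulator Irf7 at -0.80 ± 0.19 (edgeR adjusted p = 0.038). Irf7 lost its edgeR call without any 1 library other than N972 or N971 (adjusted p 0.054 to 0.105). The other 4 kept their calls without each single library. Kupffer cell and macrophage markers had 0 of 20 past edgeR's threshold (4 at an unadjusted p below 0.05, 1 by DESeq2), a median of -0.50, and a summed level of 540.8 to 1015 CPM in the controls and 337 to 734 CPM at 5%. Lymphocyte markers had 0 of 15 by edgeR (0 at an unadjusted p below 0.05, 0 by DESeq2) and a median of -0.18. The part of these cells in the interferon result was not tested. The pair N979 and N988 left out, edgeR no longer called Irf7 (adjusted p = 0.0948).

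The promoters of the interferon genes that fell were searched for the core GAAANNGAA on both strands. It was found in 3 of the 4 with a window (75%), against 9.06% of tested genes and 9.76% of all genes in the table, and each of the 3 held 3 matches. They are Ifit1 (chr19:34640760-34640833, plus strand), Ifit3 (chr19:34583354-34583455, plus strand) and Isg15 (chr4:156200856-156200916, minus strand), shown because these genes fell together, with the core in capitals.
Ifit1: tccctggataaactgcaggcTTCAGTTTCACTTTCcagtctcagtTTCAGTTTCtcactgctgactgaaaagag
Ifit3: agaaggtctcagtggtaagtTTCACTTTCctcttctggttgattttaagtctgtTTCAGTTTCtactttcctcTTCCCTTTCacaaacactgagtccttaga
Isg15: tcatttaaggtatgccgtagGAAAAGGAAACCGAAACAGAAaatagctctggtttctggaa
These genes were listed as interferon-induced to begin with, so the matches describe the list and do not bear on the diet.

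Several genes of amino acid and one-carbon metabolism fell. Ass1, which forms argininosuccinate in the urea cycle, read 4129, 3604, 3139 and 2444 CPM in the controls and 938, 1687, 1383 and 1302 CPM at 5%. It fell by 1.32 ± 0.21 on the log2 scale (edgeR adjusted p = 0.00646) and was the 1 of 16 urea cycle genes that passed, the median being -0.45, with a count of 2 without N983, N971, N967 or N975. Bhmt, which remethylates homocysteine with betaine, read 2520.5, 2781, 5279 and 4219 CPM in the controls and 687, 1431, 1299 and 2127 CPM at 5%, with -1.40 ± 0.23 (edgeR adjusted p = 0.00618). Csad, which makes the precursor of taurine, moved the other way. It read 23.2, 27.7, 31.04 and 61.9 CPM in the controls and 155, 98.3, 279 and 307 CPM at 5%, with males above females at 5%, and rose by 2.49 ± 0.34 (edgeR adjusted p = 0.00342). In the list of methionine, homocysteine and taurine 3 of 28 fell, among them Bhmt and Nnmt, the latter at -1.87 ± 0.39 (edgeR adjusted p = 0.0311). Of 38 genes of amino acid catabolism 4 fell and 0 rose, with a median of -0.42. Agxt2, a mitochondrial aminotransferase, read 204, 231, 296 and 284 CPM in the controls and 139, 137, 150.2 and 192 CPM at 5%, at -0.71 ± 0.13 (edgeR adjusted p = 0.0125). Prodh, the proline dehydrogenase, read 99.7, 139.97, 62.9 and 45.8 CPM in the controls and 37.3, 33.6, 35.8 and 37.6 CPM at 5%, at -1.16 ± 0.26 (edgeR adjusted p = 0.0317). Got1 and Kynu were the other 2. Agxt2 lost its edgeR call without N968 or N976 (adjusted p 0.0585 to 0.0759), Prodh without N980, N979, N968, N988, N987 or N976 (adjusted p 0.0533 to 0.116) and Nnmt without N980, N979, N968, N988, N987 or N976 (adjusted p 0.0533 to 0.102). The count of 4 was 0 without N968 or N976, 1 without N988, 2 without N980, N979 or N987 and 7 without N975, and that of 3 was 1 without N980, N979, N968, N988, N987 or N976. By edgeR without both N979 and N988, Nnmt (adjusted p = 0.115) and Prodh (adjusted p = 0.146) did not pass.

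Genes of glucose metabolism and insulin signalling had 2 of 29 that fell and a median of 0.04, with a count of 1 without any 1 library other than N984, N983, N979, N967 or N975 and 5 without N975. Irs2, an adaptor of the insulin receptor, read 26.4, 31.9, 11.3 and 15.8 CPM in the controls and 11.3, 8.06, 6.76 and 7.18 CPM at 5%, at -1.29 ± 0.23 (edgeR adjusted p = 0.0093); the highest 5% value equalled the lowest control to 3 digits. Ppargc1a, a coactivator of fasting genes, read 15.1, 12.1, 14.6 and 7.99 CPM in the controls and 3.83, 3.69, 2.09 and 6.71 CPM at 5%, at -1.64 ± 0.38 (edgeR adjusted p = 0.0425). Among 42 nuclear receptors and regulators 3 fell and 0 rose, and the count was 1 without any 1 library other than N984, N983, N979, N967 or N975. Ppard, a receptor related to PPARα, read 26.1, 38.3, 13.5 and 20.2 CPM in the controls and 9.06, 4.12, 5.66 and 6.25 CPM at 5%, lower in each 5% liver than in each control, at -1.92 ± 0.30 (edgeR adjusted p = 0.00579). Ghr, the growth hormone receptor, lay at -0.65 ± 0.15 (edgeR adjusted p = 0.038), and Ppargc1a was the third. Ppargc1a lost its edgeR call without any 1 library other than N984, N983, N967 or N975 (adjusted p 0.0543 to 0.143) and Ghr without any 1 library other than N979 or N975 (adjusted p 0.0511 to 0.16). Hnf4a, which sets hepatocyte identity, lay at 0.14 ± 0.18 (edgeR adjusted p = 0.824) and Nr1h4, the bile acid receptor, at 0.50 ± 0.16 (edgeR adjusted p = 0.141). Fgf21, a hormone of fasting, read 6.899, 4.53, 9.24 and 13.6 CPM in the controls and 18.7, 12.4, 6.82 and 2.78 CPM at 5%, at 0.21 ± 0.58 (edgeR adjusted p = 0.928). The edgeR call of Ppargc1a (adjusted p = 0.165) was lost without both N979 and N988.

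Clock genes made up several of the largest changes. Dbp, an output factor that binds D-boxes, read 1.100, 0.363, 0.644 and 0.157 CPM in the controls and 39.98, 28.9, 24.1 and 12.7 CPM at 5%. Every liver at 5% was more than 10 CPM above every control, and the log2 change was 5.36 ± 0.83 (edgeR adjusted p = 0.00919). Its size depends on few reads in the controls, 20 estimated reads over the 4 controls against 1508 over the 4 at 5%. Limma voom did not call Dbp (adjusted p = 0.166). Per3, a repressor, read 0.6999, 2.18, 1.29 and 0.627 CPM in the controls and 22.4, 13.2, 6.33 and 6.95 CPM at 5%, at 3.27 ± 0.50 (edgeR adjusted p = 0.00572). The 4 controls held 35 estimated reads of Per3. Bhlhe41 (Dec2), another repressor, rested on 5 estimated reads over the 4 controls and 298 over the 4 at 5%, so its log2 change of 4.99 ± 0.59 (edgeR adjusted p = 0.000872) depends on few reads and was 3.12 by limma on the deposited CPM. Nr1d2 (Rev-erb beta) read 25.4, 30.6, 28.4 and 17.6 CPM in the controls and 55.7, 56.1, 54.8 and 64.2 CPM at 5% and rose by 1.19 ± 0.19 (edgeR adjusted p = 0.00572). On the other side of the loop, Npas2, an activator, read 12.2, 15.05, 14.8 and 17.9 CPM in the controls and 1.62, 0.812, 0.922 and 3.01 CPM at 5%, at -3.31 ± 0.53 (edgeR adjusted p = 0.00781). Cry1, a repressor with late phase, read 15.998, 14.3, 16.1 and 17.4 CPM in the controls and 3.17, 4.999, 3.504 and 6.48 CPM at 5%, at -1.83 ± 0.26 (edgeR adjusted p = 0.00282). Arntl, which encodes BMAL1, read 31.8, 26.1, 21.9 and 31.7 CPM in the controls and 3.902, 3.19, 9.16 and 13.9 CPM at 5%, at -2.02 ± 0.45 (edgeR adjusted p = 0.0414). Arntl lost its edgeR call without any 1 library other than N984, N983, N972, N968 or N975 (adjusted p 0.0609 to 0.147). Thus 2 of 16 genes of the core loop rose and 3 fell. Per1, Per2, Cry2, Nr1d1, Clock and Rora did not pass. The labels give no hour of collection, and its part in these values was not tested. With neither N979 nor N988 in the fit, edgeR did not call Dbp (adjusted p = 0.0882), Npas2 (adjusted p = 0.065) and Arntl (adjusted p = 0.231).

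Of 20 clock output genes 7 rose and 2 fell (4 fell without N975), with a median of 0.40. Wee1, a cell cycle kinase, read 1.100, 0.363, 0.752 and 2.04 CPM in the controls and 6.700, 16.997, 9.47 and 5.79 CPM at 5%, at 3.20 ± 0.50 (edgeR adjusted p = 0.00572). The 4 controls held 33 estimated reads of Wee1. Tef, of the same family as Dbp, read 19.997, 49.9, 19.8 and 17.7 CPM in the controls and 107, 103, 68.9 and 80.1 CPM at 5%, at 1.79 ± 0.29 (edgeR adjusted p = 0.00671), and Hlf, the family's other member, rose by 1.14 ± 0.21 (edgeR adjusted p = 0.0126). Gadd45a, of the DNA damage response, read 1.800, 2.36, 1.07 and 0.784 CPM in the controls and 24.7, 25.6, 14.02 and 4.28 CPM at 5%, with N975 lowest at 5%, at 3.48 ± 0.58 (edgeR adjusted p = 0.00967). Nfil3, which opposes Dbp at D-boxes, read 53.99, 87.4, 51.01 and 52.5 CPM in the controls and 8.76, 10.2, 11.9 and 28.1 CPM at 5% and fell, at -2.09 ± 0.34 (edgeR adjusted p = 0.0075). Dtx4 fell too, at -1.41 ± 0.24 (edgeR adjusted p = 0.00781), and Bhlhe40 (Dec1) rose by 1.14 ± 0.23 (edgeR adjusted p = 0.0196). Gadd45a lost its edgeR call without N980 (adjusted p = 0.054) and Bhlhe40 without N968, N987 or N976 (adjusted p 0.059 to 0.0956). Without both N979 and N988, Gadd45a (adjusted p = 0.068) did not pass in edgeR.

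Promoter windows of the clock genes that moved were searched on both strands for 3 elements of the loop, and the stretches are shown because the genes moved in opposite directions. The E-box CACGTG, bound by the activators, was in 2 of the 7 with a window that rose and in 1 of the 4 that fell, against 11.6% of tested genes. The D-box TTATGNAA, bound by Dbp, Tef, Hlf and Nfil3, was in 2 of the 7 that rose and 0 of the 4 that fell (2.92% of tested genes). The Rev-erb and ROR core TAGGTCA was in 0 of the 7 and 2 of the 4 (2.57%). The E-box is in capitals in Bhlhe41 (chr6:145865548-145865593, minus strand), Tef (chr15:81802526-81802571, plus strand) and Cry1 (chr10:85185089-85185134, minus strand). The D-box is in capitals in Gadd45a (chr6:67037475-67037522, minus strand) and Per3 (chr4:151044796-151044890, minus strand), and the Rev-erb and ROR core in Arntl (chr7:113207521-113207560, plus strand) and Nfil3 (chr13:52981025-52981071, minus strand).
Bhlhe41: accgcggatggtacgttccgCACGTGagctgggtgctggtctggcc
Tef: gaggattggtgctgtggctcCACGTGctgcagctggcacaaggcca
Cry1: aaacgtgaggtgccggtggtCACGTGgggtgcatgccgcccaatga
Gadd45a: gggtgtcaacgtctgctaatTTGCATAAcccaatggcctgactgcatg
Per3: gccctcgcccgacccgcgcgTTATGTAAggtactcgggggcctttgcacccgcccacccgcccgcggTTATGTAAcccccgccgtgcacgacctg
Arntl: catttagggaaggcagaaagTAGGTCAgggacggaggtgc
Nfil3: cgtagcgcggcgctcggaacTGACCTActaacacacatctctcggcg
With sets of 7 and 4 genes these shares describe single promoters, and a window without a match says that these letters are not in it.

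Other genes with the largest changes were in none of the gene lists given so far. Lpl is counted further below with retinoid metabolism. Among those that rose, Tsku, a secreted proteoglycan, read 5.899, 7.43, 43.5 and 37.6 CPM in the controls and 116, 96.2, 142 and 165 CPM at 5%, at 2.76 ± 0.40 (edgeR adjusted p = 0.00572); control females lay below control males and the 5% livers above both. Adgrg2, an adhesion receptor, read 0.9999, 1.99, 0.4296 and 0.9404 CPM in the controls and 9.35, 6.499, 7.56 and 3.94 CPM at 5%, at 2.76 ± 0.34 (edgeR adjusted p = 0.00117). Myc read 0.4999, 0.544, 0.537 and 0.9404 CPM in the controls and 10.5, 10.9, 5.29 and 1.62 CPM at 5%, with N975 close to the controls, at 3.40 ± 0.64 (edgeR adjusted p = 0.0142). The 4 controls held 19 estimated reads of Myc. Lpl, the lipoprotein lipase, read 19.4, 9.07, 17.1 and 17.6 CPM in the controls and 87.7, 79.7, 104 and 149 CPM at 5%, at 2.68 ± 0.50 (edgeR adjusted p = 0.0185). Myc lost its edgeR call without N980 or N968 (adjusted p 0.0502 to 0.0728) and Lpl without N979, N968, N967, N988 or N987 (adjusted p 0.0532 to 0.076). Among those that fell, Ntrk2, which encodes the receptor TrkB, read 29.6, 7.98, 6.01 and 12.1 CPM in the controls and 0.8099, 0.7499, 0.307 and 0.232 CPM at 5%, below 1 CPM in each 5% liver, at -4.66 ± 0.63 (edgeR adjusted p = 0.00342). Lrtm1, a membrane protein with leucine-rich repeats, read 14.2, 13.4, 13.96 and 9.404 CPM in the controls and 0.663, 1.31, 1.17 and 0.347 CPM at 5%, at -3.79 ± 0.39 (edgeR adjusted p = 0.000293). Leaving out both N979 and N988 ended the edgeR call of Myc (adjusted p = 0.0971) and Lpl (adjusted p = 0.168).

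Loxl4, a lysyl oxidase of the matrix, read 11.998, 14.1, 4.19 and 6.58 CPM in the controls and 0.442, 0.937, 0.922 and 0.695 CPM at 5%, at -3.47 ± 0.44 (edgeR adjusted p = 0.00122). Mmd2, a membrane protein, read 21.4, 13.8, 20.2 and 17.6 CPM in the controls and 1.99, 4.12, 2.64 and 2.199 CPM at 5%, at -2.71 ± 0.33 (edgeR adjusted p = 0.000982). Serpina12, which encodes the adipokine vaspin, read 40.99, 9.97, 110.1 and 116 CPM in the controls and 2.87, 2.06, 12.6 and 7.06 CPM at 5%, higher in control males and lower in each sex at 5%, at -3.46 ± 0.54 (edgeR adjusted p = 0.00853). Depp1, a gene of the fasting response, read 206, 141, 216 and 132 CPM in the controls and 24.7, 11.3, 33.4 and 61.4 CPM at 5%, at -2.64 ± 0.43 (edgeR adjusted p = 0.00919). Pnpla5, a lipase of lipid droplets, read 21.5, 1.63, 11.6 and 9.25 CPM in the controls and 1.33, 1.56, 0.861 and 0.8103 CPM at 5%, where the control female N979 lay just above the 5% livers, at -3.29 ± 0.67 (edgeR adjusted p = 0.0257). Pnpla5 lost its edgeR call without N980, N968, N988, N987, N976 or N975 (adjusted p 0.0528 to 0.134). The pair N979 and N988 left out, edgeR no longer called Depp1 (adjusted p = 0.0899).

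Almost all of these changes had the same sign in both sexes. The genes were chosen by an effect taken over both sexes of these livers, which favours equal signs. The counts of equal sign therefore describe the chosen genes and test nothing. Each of the 164 genes that rose had a positive change in females and in males, and 174 of the 176 that fell had the same sign; the 2 exceptions, Gm12718 and Cyp3a63-ps, are a predicted gene and a pseudogene, both at low levels. A change of at least 1 on the log2 scale in both sexes was found for 77 of the genes that rose and 84 of those that fell. The difference between the sexes in the response passed for 0 genes by edgeR (lowest adjusted p 0.114), with 645 genes at an unadjusted p below 0.05, while DESeq2 called 43. With 2 animals of each sex per diet this test had little to work with.

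**Figure D4:**
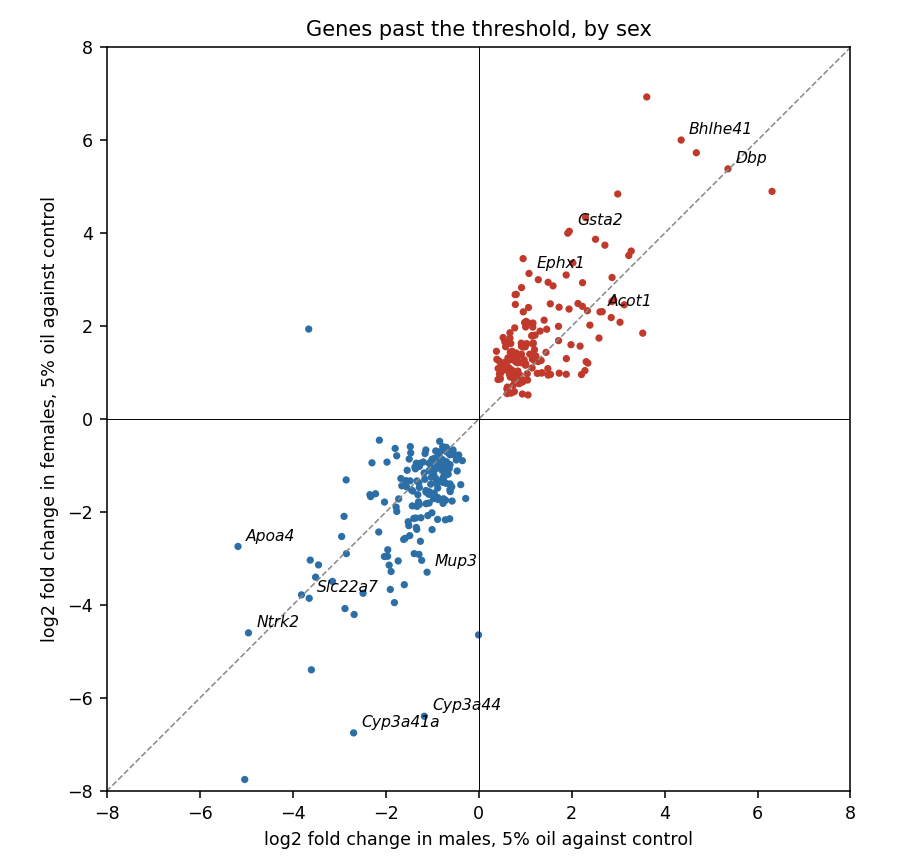
Log2 fold change at 5% oil of the 340 genes past the threshold in females (y axis) and males (x axis), red for genes that rose and blue for those that fell; the dashed line marks equal change. All 164 red points and 174 of the 176 blue points have equal sign in both sexes, which the choice of genes by an effect over both sexes favours. The female change of Cyp3a41a and Cyp3a44 is far larger than the male one, where both genes have almost no reads.

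Within these limits single genes are given as values. Ephx1 changed by 3.14 ± 0.32 in females and 1.09 ± 0.30 in males, Gsta2 by 4.04 ± 0.52 in females and 1.95 ± 0.47 in males, Retsat by 3.003 ± 0.40 in females and 1.29 ± 0.38 in males and Tsku by 4.003 ± 0.26 in females and 1.92 ± 0.23 in males. Acot1 changed by 2.31 ± 0.27 in females and 2.61 ± 0.28 in males, and Slc22a7 by -3.85 ± 0.48 in females and -3.64 ± 0.45 in males. The smallest p values of the difference belonged to 3 genes outside the 340. Gprc5b, an orphan receptor, read 0.3000, 0.544, 10.7 and 19.7 CPM in the controls and 9.42, 14.998, 15.5 and 18.2 CPM at 5%, changing by 4.92 ± 0.54 in females and 0.15 ± 0.36 in males (edgeR adjusted p of the difference = 0.114). The clone 9130409I23Rik changed by 4.76 ± 0.46 in females and 0.81 ± 0.34 in males (edgeR adjusted p = 0.114). Mup10, a major urinary protein, read 233, 172, 266 and 304 CPM in the controls and 5.45, 2.500, 81.2 and 177 CPM at 5%, changing by -5.68 ± 0.54 in females and -1.15 ± 0.44 in males (edgeR adjusted p = 0.114). For the first 2, both control females lay far below both control males.

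Genes listed as differing between male and female liver moved in both directions. Of 33 genes listed as female-biased 8 rose and 2 fell, with a median of -0.21. The 8 are Cyp4a10, Cyp4a14, Cyp2a4, Cyp2b10, Acot3, Acot4, Fmo2 and Vldlr, several of them PPARα or CAR targets as well. In these controls Cyp4a10 was lower in females, at 292 and 296 CPM, than in males, at 426 and 584 CPM. Cyp4a14 overlapped between the sexes, at 446 and 768 CPM in control females and 363 and 456 CPM in control males. Of 33 male-biased genes 4 fell and 1 rose, with a median of -0.76. Mup3, the most abundant gene that fell, read 3310.2, 3558, 9202 and 6147 CPM in the controls and 479, 225, 2823 and 4305 CPM at 5%, at -2.09 ± 0.47 (edgeR adjusted p = 0.0434). The others that fell were C8a, C9 and Hsd3b5, and Gstp1 rose. Mup3 lost its edgeR call without any 1 library other than N971, N967 or N975 (adjusted p 0.0511 to 0.172) and Gstp1 without N984, N980, N979, N967, N988 or N987 (adjusted p 0.0509 to 0.138). The count of 4 was 2 without N984, N972, N980, N987 or N976, and the count of 8 was 4 without N980 or N976 and 5 without N987. The 2 female-biased genes that fell became 1 without N988 and 4 without N987 or N975, 6 with DESeq2 and 7 with voom. The sign of the female-biased median changes on the deposited CPM, which shifts the median of all genes by 0.17. By edgeR without both N979 and N988, Mup3 (adjusted p = 0.263) and Gstp1 (adjusted p = 0.123) did not pass.

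Markers of most other liver cells did not pass, though in several lists nearly all lay below 0. Above 0 were 1 of 18 sinusoidal endothelial, 1 of 20 Kupffer cell and macrophage, 1 of 6 cholangiocyte and 1 of 17 periportal markers. More lay above 0 among stellate cell and matrix (6 of 17), pericentral (7 of 18) and neutrophil markers (3 of 4). The median of all genes was 0.01, and the part of cell numbers in these values was not tested. Sinusoidal endothelial markers had 0 of 18 past edgeR's threshold (2 at an unadjusted p below 0.05, 0 by DESeq2) and a median of -0.40. Stellate cell and matrix markers had 0 of 17 by edgeR (2 at an unadjusted p below 0.05, 1 by DESeq2) and a median of -0.11. Cholangiocyte markers had 0 of 6 by edgeR (0 at an unadjusted p below 0.05, 0 by DESeq2) and a median of -0.32, and neutrophil markers 0 of 4 (0 at an unadjusted p below 0.05, 0 by DESeq2) and 0.62. Of 17 periportal markers 1 fell, Ass1, with a median of -0.68, and the count was 2 without N983, N971 or N987, 3 without N967 and 4 without N975. Of 18 pericentral markers 1 fell, Gulo, at -0.77 ± 0.18 (edgeR adjusted p = 0.038), with a median of -0.09. Of 6 erythroid markers Alas2 fell, with 12.3, 11.8, 110.4 and 116 CPM in the controls and 6.77, 6.56, 37.6 and 43.2 CPM at 5% and -1.17 ± 0.23 (edgeR adjusted p = 0.0168). Haemoglobin genes took 0.0342 ± 0.0153% of reads in the controls and 0.0137 ± 0.00852% at 5% (exact permutation p = 0.0857, 0.190 adjusted over 5 measures), and the part of blood in the Alas2 result was not tested. Car3, an adipocyte marker that hepatocytes also make, read 2169, 1842, 5743 and 4333 CPM in the controls and 758, 843, 1589 and 2437 CPM at 5%, at -1.32 ± 0.24 (edgeR adjusted p = 0.0105), while Adipoq and Lep had 0 reads in both diets. The pancreatic marker Cela1 read 16.5, 34.6, 36.7 and 22.7 CPM in the controls and 12.1, 12.7, 12.05 and 10.997 CPM at 5%, at -1.18 ± 0.27 (edgeR adjusted p = 0.038), while Amy2a5, Cel, Cpa1, Ctrb1, Pnlip, Prss2, Try4 and Try5 had 0 reads. Gulo lost its edgeR call without any 1 library other than N972, N971 or N979 (adjusted p 0.0511 to 0.126), Alas2 without N968 or N976 (adjusted p 0.0531 to 0.0855) and Cela1 without any 1 library other than N984, N972, N980 or N967 (adjusted p 0.0524 to 0.137). The edgeR call of Gulo (adjusted p = 0.0846) and Cela1 (adjusted p = 0.115) was lost without both N979 and N988.

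The livers at 1% oil give levels to read the 5% values against, with no test made here. Acot1 read 78.6 to 113 CPM at 1%, Cyp4a10 1763 to 3065 CPM and Cyp4a14 2223 to 3353 CPM, ranges that overlap those at 5%. Nr1d2 read 41.1 to 63.9 CPM and Nupr1 3.55 to 4.69 CPM, which overlap the 5% range too. Nqo1 read 8.59 to 11.9 CPM, Gstm1 1524 to 2922 CPM and Wee1 0.312 to 1.48 CPM, ranges that overlap the controls and lie below all 5% livers. Slc22a7 read 4.22 to 12.4 CPM, Hfe2 99.9 to 117 CPM and Ass1 2412 to 3503 CPM, all above the 5% range. The comparisons of the 2 doses share their controls.

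The authors' deposited table of test results holds 261 genes, 161 of them with a positive log2 fold change, and does not name its contrast. All 261 genes of the authors' deposited table were tested here, and all 261 had the same sign in 5% against control. Of them 168 passed here, which is 64.4% of the authors' deposited table and 49.4% of the 340 genes. An adjusted p below 0.05 is given for 139 genes in the authors' deposited table, and the largest is 0.112.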

How the data were processed

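The authors deposited estimated counts for 49398 genes and for 141450 transcripts, CPM for 11339 genes, and a table with log2 fold changes and p-values. CPM-like values per library in that table, deposited by the authors and taken here as a score, have the sex difference removed, as their values show, and were not used. The submitters' processing notes name kallisto, edgeR and limma, and GRCm39 as build, with neither version nor role. Per the labels' protocols the poly(A) library kit keeps strand; whether counting used it is not stated. The series text speaks of 6 samples per diet; the 12 libraries listed were analysed. Rounded counts of the 13814 genes that filterByExpr kept (6 diet by sex groups) were scaled by TMM and fitted by edgeR 4.0.16 (R 4.3.3): a robust quasi-likelihood fit of diet plus sex over all 12 libraries, and the contrast of 5% with control. The common biological coefficient of variation was 26.6%. CPM in the text are TMM-scaled; errors are standard errors of log2 fold changes and SD of means. The fit was run on counts simulated from its own mean levels, library sizes and dispersions. These counts held no sex effect and no deviating library, so that run cannot speak to either. Symbols matched 48845 IDs and not 553. Alternatives used RLE and upper quartile factors, other filters (none, or 50 reads in 4 libraries), DESeq2 1.42.0, voom and trend from limma 3.58.1 (pseudocount 0.5), transcript sums, other covariates and omitted libraries. Genes were named by rule: the 12 largest changes in each direction above a mean log2 CPM of 1 with equal sign in both sexes, the 2 smallest p values per list, the 5 most abundant in each direction, a set reported whatever its result, and 3 for the sexes. Results of some genes are not reported here. Further members of short lists were named after their values were seen. The comparison, lists, rule and tests were chosen with earlier results of these data known.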

Additional observations from a re-analysis of the deposited data

Results flagged for a closer look

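In 14 of the 230 groups of 4 libraries checked (110 genes and 5 library measures in each diet), 1 library stood apart from the other 3 by more than Dixon's 95% limit for the gap over the range; chance alone gives about 5% of groups.
Among genes that changed, control N967 read 0.940 CPM of Myc (the others 0.4999 to 0.544) and 9.40 CPM of Lrtm1 (13.4 to 14.2). Control N968 read 30.0 CPM of Slc22a7 (11.2 to 13.9), and the 5% female N987 read 41.1 CPM of Cyp3a41a (0 to 3.53). Cyp2c29 stood apart in both diets, at 317 CPM in control N979 (653 to 674) and 865 CPM in N988 at 5% (2116 to 2312). The 5% males gave 84.9 CPM of Acot1 (100.9 to 102) and 64.1 CPM of Ifi27 (57.0 to 58.2) in N976, and 64.2 CPM of Nr1d2 (54.8 to 56.1) in N975.
Among genes that did not pass, control N979 read 533 CPM of Nr1i3 (114 to 154) and 597 CPM of Elovl5 (1898 to 2007), and control N967 read 273 CPM of Cpt1a (171 to 182).
The share of reads in Malat1, Neat1 and Kcnq1ot1 was 0.140% in N988 (95% Wilson interval 0.138 to 0.142%, counting error only), against 0.0264 to 0.0395% in the other livers at 5%.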

How the results depend on the processing

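Without a filter 1011 genes passed (497 higher, 514 lower), with DESeq2 749 (320 and 429), with the 8 libraries alone 201 (88 and 113) and without the sex term 107 (51 and 56). Without both N979 and N988, an alternative chosen after seeing the data, 209 passed (87 and 122). Leaving out 1 library gave 138 to 479 genes, 70 to 237 higher and 68 to 242 lower; these fits tested 14378 to 14615 genes, as a group of 1 library lets more through the filter. Limma on the deposited CPM, which moves the median of all genes by 0.17, called 340 higher and 118 lower, a share of 74.2% higher, where edgeR's fit of the counts called 164 and 176. RLE and upper quartile factors, the stricter filter, voom, transcript sums and the noncoding covariate gave 326 to 487 genes. The noncoding covariate ended the calls of Arntl, Got1, Hsd3b5, Insig1, Mup3, Nnmt and Pdk4. RLE factors ended those of Acadm, Acsl1 and Fitm2, and upper quartile factors those of Acaa1a, Acadm, Apoc3, Blvrb and Eci2. Transcript sums did so for Apoc3, Fitm2 and Hsd3b5, and no filter for Acsl1, Apol7a, C1s1, Ghr, Hc and Serping1. Genes whose response differed between the sexes numbered 43 with DESeq2 and 0 to 2 when a library was left out. Of 128 genes named by rule or counted in lists, 59 passed without each library and 79 did not pass without the sex term. Of the 34 rule-named genes that did not pass, 13 passed under some alternative. No rule-named gene that passed changed sign under any alternative. Some that did not pass lay on both sides of 0, among them Fgf21 (-0.41 to 0.66), Fasn (-0.54 to 0.34), Elovl6 (-0.24 to 0.65), Nfe2l2 (-0.30 to 0.02) and Cpt1a (-0.17 to 0.12). Limma on the deposited CPM did not call Apoc3, Apol7a, Apol9b, Bco1, Cela1, Cyp3a41a, Cyp3a44, Ddit3, Gulo, Irf7, Orm2, Pnpla5 or Stra6l. It also did not call Hsd3b5 or the complement genes C1s1, Hc and Serping1, and complement genes that fell numbered 4 there (7 in the main fit). Voom did not call Apoc3, Dbp, Pnpla5 or Saa3. With the 8 libraries alone edgeR did not call Abcc3, Acaa1a, Acaa1b, Acadm, Acot4, Acsl1, Agxt2, Aox1, Apoc3, Apol7a, Apol9b, Bco1, Bhlhe40 or Blvrb. Nor did it call C1s1, C8g, Ddit3, Ech1, Eci2, Entpd5, Fitm2, Ghr, Gpd1, Gsr, Gsta4, Gstp1, Gulo or Hc. Hsd17b11, Insig1, Irf7, Kynu, Mup3, Orm2, Pdk4, Ppargc1a, Prodh, Saa2, Saa3, Serping1, Ugdh and Vnn1 were not called there either. List medians kept their sign under RLE and upper quartile factors, and 10 of 50 changed it on the deposited CPM. No paired analysis was possible because each animal's number occurs in 1 group. With 4 libraries per diet, and 2 of each sex, the number of libraries limits the precision of every value.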

Other observations

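Iron and heme genes had 2 of 28 members that fell and 0 that rose, with 1 without N968 or N976. Hfe2 (hemojuvelin), which drives expression of the iron hormone hepcidin, read 127, 141, 107 and 98.6 CPM in the controls and 38.1, 25.8, 37.4 and 59.3 CPM at 5%. All livers at 5% lay below all controls, at -1.58 ± 0.22 (edgeR adjusted p = 0.00282). Alas2, of heme synthesis in red cells, was the other and is given above beside the haemoglobin genes. In retinoid metabolism 2 of 27 rose, Retsat and Lpl, and 2 fell, Bco1, which cleaves beta-carotene, at -1.11 ± 0.25 (edgeR adjusted p = 0.0366) and Stra6l, a liver retinol transporter, at -0.99 ± 0.21 (edgeR adjusted p = 0.0263). Bco1 lost its edgeR call without any 1 library other than N984, N983, N972, N979 or N975 (adjusted p 0.0503 to 0.133) and Stra6l without N979, N968, N988, N987 or N976 (adjusted p 0.0504 to 0.0885). The count of the retinoid list that rose was 1 without N980, N979, N968, N967, N988 or N987, and the count that fell 0 without N968, N988, N987 or N976 and 1 without N971, N980 or N979. With neither N979 nor N988 in the fit, edgeR did not call Bco1 (adjusted p = 0.0717) and Stra6l (adjusted p = 0.0718).

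Genes of endoplasmic reticulum stress and the integrated stress response had 2 of 35 that fell and 1 that rose. The count that fell was 1 without N968, N988, N987 or N976, and the count that rose 0 without N980, N968, N987 or N976 and 2 without N967 or N988. Nupr1, a stress-induced chromatin protein, read 21.7, 9.61, 12.7 and 9.09 CPM in the controls and 6.700, 3.62, 2.398 and 1.85 CPM at 5%, at -1.92 ± 0.32 (edgeR adjusted p = 0.00712). Ddit3, which encodes CHOP, read 8.999, 19.8, 13.5 and 11.3 CPM in the controls and 5.96, 3.37, 4.43 and 7.76 CPM at 5%, at -1.33 ± 0.29 (edgeR adjusted p = 0.0278), and Vldlr, the lipoprotein receptor, rose by 0.89 ± 0.19 (edgeR adjusted p = 0.0251). Ddit3 lost its edgeR call without N979, N968, N988, N987 or N976 (adjusted p 0.0601 to 0.105) and Vldlr without N980, N968, N987 or N976 (adjusted p 0.0555 to 0.097). Nuclear-encoded oxidative phosphorylation, a large set of abundant genes, had 0 of 58 past edgeR's threshold (1 at an unadjusted p below 0.05, 0 by DESeq2) and a median of -0.13. Carboxylesterases had 0 of 14 by edgeR (7 at an unadjusted p below 0.05, 2 by DESeq2) and a median of 0.36. Without both N979 and N988, Ddit3 (adjusted p = 0.0621) did not pass in edgeR.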
